A study of Mus musculus with 11 samples.

Results

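The array labelled Heart was compared with the array of the line labelled D6_MEL, which are 2 of the 11 arrays of the series and the most alike pair among them. The pair was chosen for that likeness, so its closeness is a description here, and each label had 1 array, which leaves every difference below without a replicate check and without a test. Per the labels, each sample gave total RNA, taken up in Trizol, which received Cy3 by direct dye incorporation and was hybridised beside a Cy5-labelled reference RNA from mouse embryo that all 11 arrays share. The label Heart names an organ and gives no strain, age or number of animals; this array is called the Heart-labelled array below. D6_MEL carries the cell code C3, NRAS_MEL the code C3 with Nras added, and MEL is read as melanocyte from the series title, which asks about RAS isoforms in melanocytes. The other arrays were NRAS_MEL, HRAS_MEL, Melan A, 3T3, VA_475, VA_MEF, Kidney, Liver and Lung. Values are deposited log ratios, taken as log2, with the sign turned so that a positive value means more of the sample's own RNA than of the reference. That direction is likely but not stated, and the titles put the sample before the reference; were the deposited sign the intended one, every signed value below would turn.

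The labels of the pair were set against marker genes. Of the 29 heart muscle genes listed, 5 were measured, and their median was -0.39 in the Heart-labelled array, -0.47 in D6_MEL and 3.13 in the array labelled Melan A, the highest of the 11. Actn2, which anchors actin at the Z-disc of heart muscle, stood at -5.38 in the Heart-labelled array, at -4.79 in D6_MEL and, in the array labelled Melan A, at 2.08. Fabp3, the fatty acid carrier of heart muscle, stood at -1.90 in the Heart-labelled array, at -1.91 in D6_MEL and, in the array labelled Melan A, at 3.13. Both genes were low in the pair and high in the array labelled Melan A. Nppb (-0.01 in the Heart-labelled array, 0.36 in D6_MEL) and Atp2a2 (-0.39 and -0.47) were nearer 0 in the pair. In the array labelled Melan A they stood at 4.42 and 3.21. Myl4 went the other way, at 0.15, 0.03 and, in the array labelled Melan A, -0.52. By the list's median, the Heart-labelled array went against its label here, and it is called by that label only. The liver list was highest in the array labelled Lung and the lung list in the array labelled Liver, with medians of 2.21 and 5.75, so other organ labels also went against their markers. Of 31 pigment cell genes, 15 were measured, with medians of 0.24 in the Heart-labelled array and -0.17 in D6_MEL. The highest median was 0.52, in VA_MEF, and the lowest -0.89, in the array labelled Melan A. HRAS_MEL stood at 0.06 and NRAS_MEL at 0.04. Among the 11 arrays the Heart-labelled array ranked 2 and D6_MEL ranked 7. By the list's median, D6_MEL was thus not set apart as a melanocyte line. Tyr, Dct, Pmel, Mitf and Sox10 were not among the named genes analysed here. Mlph, which tethers melanosomes to their myosin motor, stood at 2.94 in the Heart-labelled array and at 3.18 in D6_MEL, against -0.06 in the array labelled Melan A. Other pigment cell genes were low in the pair: Ednrb, an endothelin receptor of melanocyte precursors, stood at -3.41 in the Heart-labelled array and -2.79 in D6_MEL, and Kit, the receptor for stem cell factor, at -1.77 and -1.09.

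Melanocytes make pigment in melanosomes, organelles related to lysosomes, which are the acid compartments where proteins, lipids and sugars are digested. RAS proteins are small GTPases that pass growth signals to the MAP kinase cascade, and melanocytes descend from the neural crest. The lists below therefore cover lysosomes, lipid synthesis, cell division, stress responses, MAP kinase targets and marker genes of other cell types.

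Over the 7076 genes with a value on both arrays, the Pearson correlation was 0.918, a description across genes that share 2 arrays and 1 reference. Over the 7013 genes valued on all 11 arrays it was 0.923 (Spearman 0.854), the highest of the 55 pairs of arrays, and the next pair, 3T3 and VA_475, reached 0.807. The difference of the Heart-labelled array minus D6_MEL had a median of -0.00 and an SD of 0.382 over genes, and its 1st and 99th percentiles were -1.09 and 0.94 on the log2 scale. A difference of at least 2-fold was found for 147 genes, or 2.08%. Of these, 61 were higher in the Heart-labelled array (0.862% of the genes) and 86 were lower (1.22%). Over the 7013 genes the pair had 130 genes 2-fold apart, and the fewest among the 54 other pairs were 467, between D6_MEL and NRAS_MEL. NRAS_MEL was also the nearest array to each of the pair after the other, at 0.783 for the Heart-labelled array and 0.794 for D6_MEL. The 2 arrays did not stand equally far from 3T3, where 914 genes were 2-fold apart from the Heart-labelled array and 660 from D6_MEL.

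**Figure D1:**
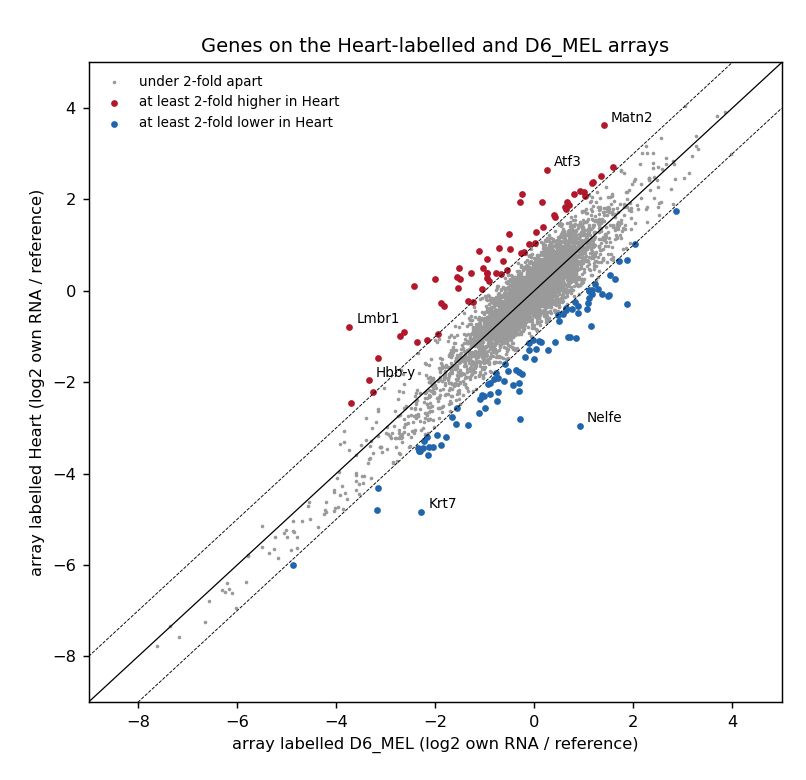
Each point is 1 of 7076 genes, with its log2 ratio of own RNA over reference in D6_MEL on the x axis and in the Heart-labelled array on the y axis; the solid line marks equal values and the dashed lines 2-fold. The 61 genes at least 2-fold higher in the Heart-labelled array and the 86 lower ones lie outside the dashed lines, with Lmbr1 and Nelfe farthest.

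The lysosomal genes of the list lay above D6_MEL in the Heart-labelled array almost without exception, each by a small amount. Of the 31 measured, 30 were above 0, against 49.9% of all genes, and the median difference was 0.51, against -0.00 over all genes. At least 1.5-fold higher were 12 of them, against 4.54% of all genes, and 0 were 2-fold apart. The median level of the list was 0.70 in the Heart-labelled array, the highest of the 11 arrays, 0.31 in D6_MEL, and between -0.46 and 0.61 in the other 9. Hexa, a subunit of the hexosaminidase that degrades gangliosides, stood at 2.05 in the Heart-labelled array and 1.16 in D6_MEL, with the other 9 arrays between -0.75 and 1.33. The Heart-labelled array was thus above every other array for Hexa. Ctsd, an aspartic protease, had 2 probes with differences of 0.73 and 1.01, and its mean stood at 1.42 in the Heart-labelled array and 0.54 in D6_MEL. Cd63, a tetraspanin of lysosomes and melanosomes, had 3 probes, which differed by 0.73 to 0.96. Each probe of these genes gave the same direction. Manba, the lysosomal beta-mannosidase, differed by 0.92, Naglu, which degrades heparan sulphate, by 0.85, and Ctsb, a cysteine protease, by 0.77. The smallest differences belonged to Glb1, the lysosomal beta-galactosidase, at 0.03 and to Ppt1, a thioesterase, at -0.06, the only member below 0. Ctsc, a cathepsin outside the list, differed by -0.53.

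Many lysosomal genes carry in their promoters an E-box, CACGTG, flanked by GT, known from human cells as the element that the factor TFEB binds. The letters GTCACGTG were searched on both strands of the 250 bases before each gene's start, in RefSeq promoters of build GRCm38.p6, and no other motif was searched. Promoters were at hand for 24 of the 31 lysosomal genes, and 7 of them held the letters (29.2%), against 255 of 5718 measured genes (4.46%) and 571 of 27025 promoters in all (2.11%). The windows of all 7 are shown because they carry those letters, and capitals mark the match or its reverse complement, CACGTGAC. Their differences were 0.87 for Ctsd, 0.85 for Naglu, 0.59 for Ctsa, 0.47 for Cln3, 0.25 for Lamp1 and for Gla, and 0.03 for Glb1. The window of Ctsd lies at chr7:142388035-142388077 (minus strand), that of Naglu at chr11:101069989-101070056 (plus strand), that of Ctsa, a serine carboxypeptidase, at chr2:164833729-164833772 (plus strand), that of Cln3, a lysosomal membrane protein, at chr7:126583322-126583389 (minus strand) and that of Lamp1, a main glycoprotein of the lysosomal membrane, at chr8:13159103-13159160 (plus strand). That of Gla, the lysosomal alpha-galactosidase, lies at chrX:134601164-134601231 (minus strand) and that of Glb1 at chr9:114400998-114401065 (plus strand), each upstream of the gene's start and written 5′ to 3′ on the gene's strand.
Ctsd: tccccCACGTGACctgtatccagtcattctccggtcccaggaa
Naglu: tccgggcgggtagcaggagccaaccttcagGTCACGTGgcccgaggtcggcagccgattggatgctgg
Ctsa: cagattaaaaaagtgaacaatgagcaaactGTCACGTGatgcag
Cln3: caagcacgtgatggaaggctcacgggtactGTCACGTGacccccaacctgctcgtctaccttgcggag
Lamp1: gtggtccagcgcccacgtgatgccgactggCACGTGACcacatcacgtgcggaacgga
Gla: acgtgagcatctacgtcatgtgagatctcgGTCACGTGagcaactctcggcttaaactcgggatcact
Glb1: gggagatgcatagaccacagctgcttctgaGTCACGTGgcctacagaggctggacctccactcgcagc
The letters did not sort the lysosomal genes by difference: the median was 0.47 over the 7 with a match and 0.52 over the 17 without. Over the other 248 measured genes with a match the median was 0.06, and 56.5% were above 0, against -0.00 and 49.4% over the 5463 without. A match describes the letters of a window and no binding was measured.

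Genes of cholesterol synthesis also lay higher in the Heart-labelled array, with a median difference of 0.55 over 9 measured genes. Of these, 7 were above 0, against 49.9% of all genes, and 4 were at least 1.5-fold higher, against 4.54% of all genes. Lss, which closes the sterol ring, stood at 1.29 in the Heart-labelled array and 0.60 in D6_MEL. Fdft1, squalene synthase, stood at 0.79 in the Heart-labelled array and 0.11 in D6_MEL. Msmo1, a sterol demethylase with 2 probes, stood at 1.70 in the Heart-labelled array and 1.05 in D6_MEL. For these 3 enzymes the array labelled Lung was the highest of all, at 1.92, 2.27 and 2.54. Hmgcs1, which feeds the pathway, stood at -0.47 in the Heart-labelled array and -0.22 in D6_MEL, and Nsdhl was also below 0 in the difference, at -0.21. Fatty acid synthesis genes had a median of 0.01 over 9 genes, with Scd2, a desaturase, highest at 0.83.

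Most genes of cell division lay lower in the Heart-labelled array, again each by little. Of 31 DNA replication genes, 23 were below 0, against 50.1% of all genes, with a median of -0.18, and 5 were at least 1.5-fold lower, against 5.54% of all genes. Mcm3, a subunit of the replicative helicase, stood at -0.56 in the Heart-labelled array and 0.22 in D6_MEL. Mcm2, of the same helicase, stood at -0.30 in the Heart-labelled array and 0.40 in D6_MEL, while Mcm4 ran the other way, at -0.10 and -0.37. Rrm2, of the ribonucleotide reductase that supplies DNA precursors, stood at -0.21 in the Heart-labelled array and 0.46 in D6_MEL. Of 34 mitosis genes, 25 were below 0, with a median of -0.21. Smc4, a condensin subunit, differed by -0.75 and Birc5, which acts at the centromere, by -0.63, whereas Cenpf, a kinetochore protein, differed by 0.51. The medians of both lists lay near 0 in level, at -0.14 and -0.05 in the Heart-labelled array and 0.06 and 0.16 in D6_MEL. Proliferation lists were far lower in Kidney, at -1.12 and -1.67.

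Ribosomal protein and proteasome genes had medians near 0, and other lists of general cell functions were shifted by small amounts. Over all genes 49.9% were above 0. The median over 69 ribosomal protein genes was 0.01, with 36 above 0, and the 32 proteasome genes had a median of 0.02, with 18 above 0. Of 17 tRNA synthetases, which load amino acids onto tRNA, 3 were above 0 and the median was -0.18, but Yars, the tyrosine enzyme, stood at 1.40 in the Heart-labelled array and 0.18 in D6_MEL, and in the other 9 arrays no higher than 0.60. Heat shock genes had a median of -0.23 over 16, with 5 above 0, and genes of glycolysis and hypoxia one of -0.13 over 21, with 6 above 0. Aldoc, a glycolytic aldolase, was the most distant of those, at -3.16 in the Heart-labelled array and -1.96 in D6_MEL. Over 58 genes of oxidative phosphorylation the median was 0.17, with 44 above 0, and Sdhb, the iron-sulphur subunit of complex II, was highest in difference, at 0.78 in the Heart-labelled array and -0.08 in D6_MEL.

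**Figure D2:**
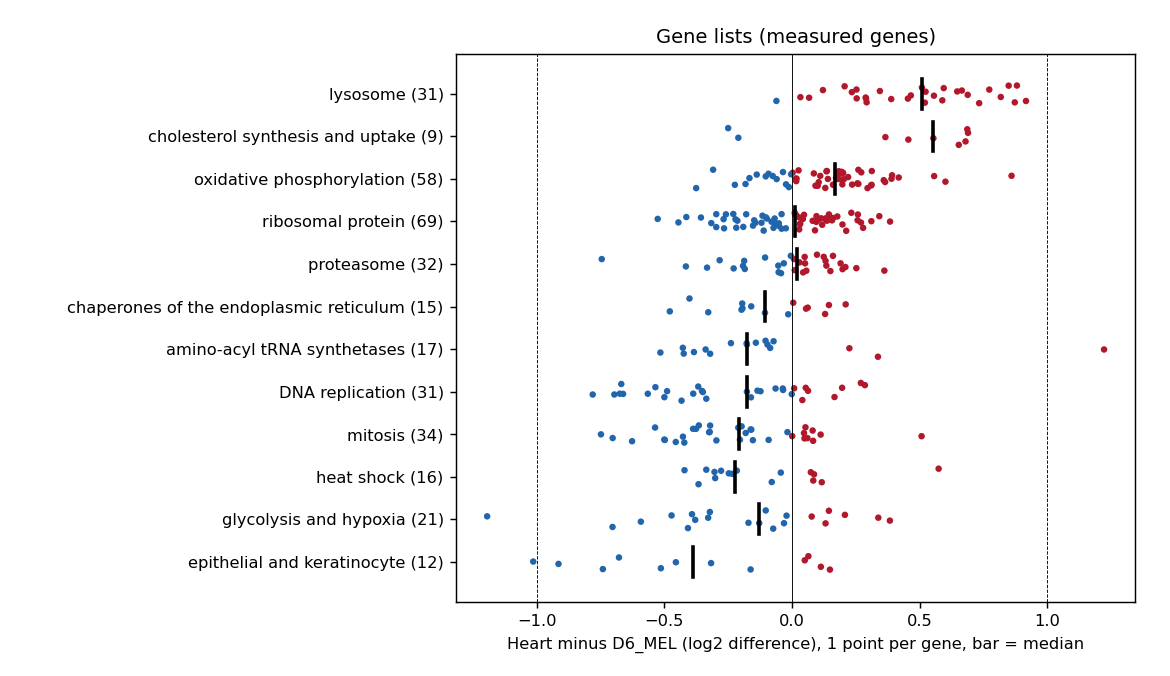
Each point is a measured gene of a list, placed on the x axis by its log2 difference, Heart-labelled array minus D6_MEL; bars are medians, dashed lines mark 2-fold, and the number of genes follows each list's name. Of the 31 lysosomal genes, 30 lie right of 0, while 23 of 31 replication and 25 of 34 mitosis genes lie left of it.

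Single genes 2-fold apart were mostly measured by 1 probe, which bears on how far each can be read. Of the 147, 135 had 1 probe, that is 2.56% of the 5279 genes of that kind, and 12 were among the 1797 genes with several probes (0.668%). The differences of 2 probes of the same gene correlated at 0.304 (Pearson) over those 1797 genes, and the root mean square of the SD between probes was 0.323. Every probe was at least 2-fold apart for 4 genes higher in the Heart-labelled array and 1 lower. Hbb-y, the embryonic beta-like globin, had 4 probes, with differences of 1.02 to 2.0, and stood at -1.96 in the Heart-labelled array and -3.35 in D6_MEL. The Heart-labelled array lay among the other 9 there, which ran from -2.64 to -1.14, and D6_MEL below all of them. Nid1, which links laminin to collagen in basement membranes, had 2 probes at 1.09 and 1.41, and stood at 2.18 in the Heart-labelled array and 0.92 in D6_MEL, both above the other 9, of which the highest was -0.27. Afap1l2, an adaptor that binds the kinase Src, stood at 1.83 in the Heart-labelled array and 0.63 in D6_MEL, and the other 9 no higher than 0.16. The order was thus the Heart-labelled array, D6_MEL, then the rest, for both genes. Cdhr4, a cadherin-related protein, stood at 2.38 in the Heart-labelled array and 1.18 in D6_MEL, with VA_MEF at 2.61 and Liver at 2.50. Tpm2, a tropomyosin of the actin cytoskeleton, was the gene lower by both probes, at -6.00 in the Heart-labelled array and -4.87 in D6_MEL, and was between -5.74 and -2.11 in the others.

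The 15 genes with the highest difference all had 1 probe, and they included genes high in the Heart-labelled array and genes low in D6_MEL. Atf3, a transcription factor of stress responses, stood at 2.65 in the Heart-labelled array and 0.25 in D6_MEL. Matn2, a matrix adaptor protein, stood at 3.62 in the Heart-labelled array and 1.40 in D6_MEL. The Heart-labelled array was above all other 9 for both, VA_MEF being the nearest for Atf3 at 2.0 and HRAS_MEL for Matn2 at 2.26. Bik, which promotes cell death, Wipf2, a partner of the actin regulator WASP, and BC002059 were likewise above all 9 in the Heart-labelled array. Lmbr1, a membrane protein gene whose intron holds a limb enhancer, stood at -0.79 in the Heart-labelled array and -3.74 in D6_MEL. Tomm7, a subunit of the mitochondrial import pore, stood at 0.27 in the Heart-labelled array and -2.0 in D6_MEL. Tmem14c, which is needed for haem synthesis, stood at -0.98 in the Heart-labelled array and -2.70 in D6_MEL. For these 3 D6_MEL was the lowest of the 11 arrays, and for Tomm7 and Tmem14c the Heart-labelled array was the next lowest. The others of the 15 were Ell, an elongation factor of RNA polymerase II valued on 4 of the other 9 arrays, Raver2, Fam83g, Nop53, Gpank1, Wnt6, a secreted signalling protein, and Mysm1, a histone deubiquitinase, with differences of 1.72 to 2.55.

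The 15 genes with the lowest difference also had 1 probe each. Nelfe, a subunit of the complex that pauses RNA polymerase II, stood at -2.95 in the Heart-labelled array and 0.92 in D6_MEL, and the 7 other arrays with a value lay between -1.11 and 0.98. Krt7, a keratin of simple epithelia, stood at -4.83 in the Heart-labelled array and -2.29 in D6_MEL. The Heart-labelled array was the lowest of all for both. Hif1a, the oxygen-regulated transcription factor, stood at -0.78 in the Heart-labelled array and 1.15 in D6_MEL, with values on 6 of the other 9. Csf1, the growth factor of macrophages, stood at -1.01 in the Heart-labelled array and 0.72 in D6_MEL. Vcan, a matrix proteoglycan, stood at -1.03 in the Heart-labelled array and 0.83 in D6_MEL. Neither array left the range of the others for Csf1 and Vcan. B3galt5, a galactosyltransferase, was a gene high in D6_MEL, at -0.30 in the Heart-labelled array and 1.87 in D6_MEL, above all others. Tfpi, an inhibitor of clotting, Irgq, Gstm5, Rhox5, Gng3, a G-protein subunit, 1810055G02Rik, Pip4p1, Gdap1 and Fcgbp completed the 15, with differences of -2.52 to -1.59. At the 2-fold limit, Foxj3, Lyz2 and Dhrs3 lay just inside at 1.0, and Usp5, Gpr137b and Usp25 just outside, at 1.0, 0.99 and 0.99 after rounding. On the lower side Gipc2, Plxnb2 and Ovol1 lay just inside, at -1.0, -1.01 and -1.01, and Imp4, Ap3s2 and Lmnb1 just outside, at -1.0.

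**Figure D3:**
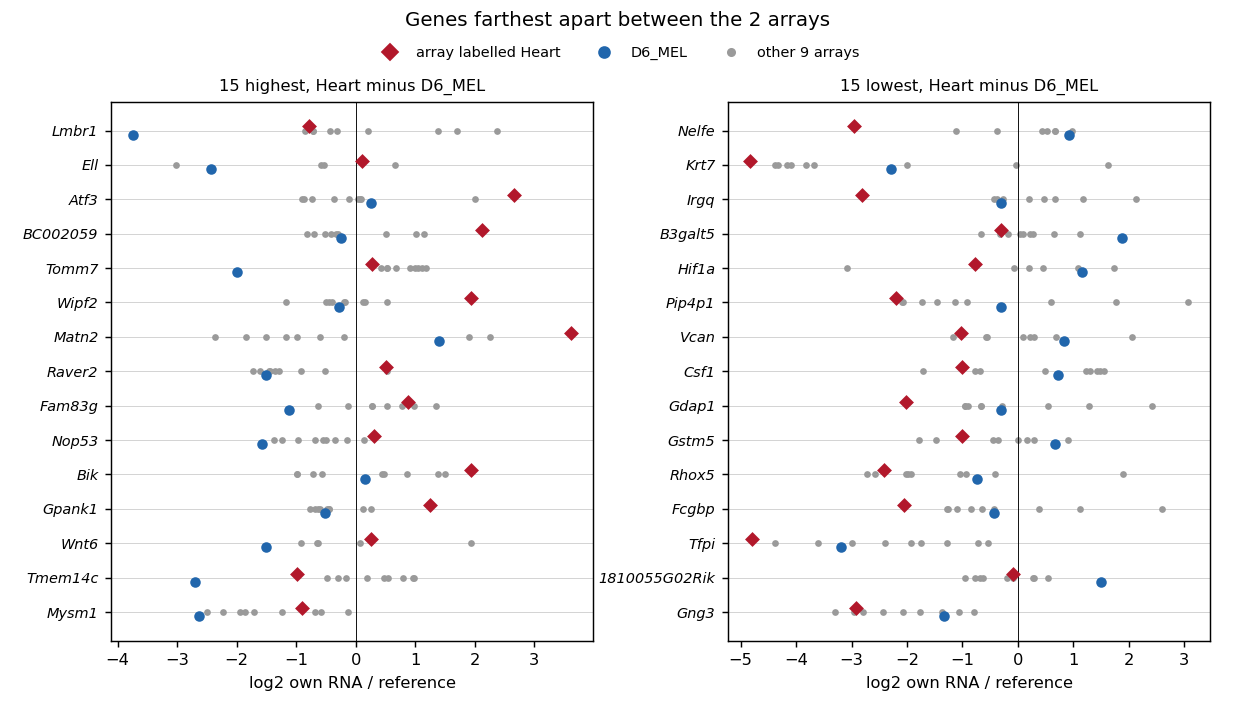
For the 15 highest and 15 lowest genes of the difference, the log2 ratio of own RNA over reference is shown in the Heart-labelled array (diamonds), in D6_MEL (circles) and in the other 9 arrays (grey points). Among the highest, Atf3 and Matn2 stand apart in the Heart-labelled array, and Lmbr1, Tomm7 and Tmem14c in D6_MEL.

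Counted over the genes valued on all 11 arrays, the Heart-labelled array was the one outside the others more often than D6_MEL. Of 54 genes at least 2-fold higher, the Heart-labelled array alone lay outside the range of the other 9 in 24, D6_MEL alone in 8, both in 6 and neither in 16. Of 76 genes at least 2-fold lower, the counts were 26, 20, 5 and 25. For the lower genes that order turned under quantile normalization, with the Heart-labelled array alone outside in 11 and D6_MEL alone in 29. Over all 7013 such genes, the Heart-labelled array lay outside in 17.8% and D6_MEL in 14.9%. The Heart-labelled array also had the wider spread, with an SD over its probes of 0.949, against 0.882 in D6_MEL. Genes with a pair mean under -1 had a median difference of -0.25 over 741 genes, 13 at least 2-fold higher and 44 lower, and genes at 1 or more one of 0.14 over 346 genes, 17 higher and 4 lower. The part of that spread in single differences was not tested.

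Part of the genes lower in the Heart-labelled array belonged to a set of probes with the same profile elsewhere. The probe of Gdap1, a protein of the mitochondrial outer membrane, was taken as a starting point after its values were seen, and stood at -2.01 in the Heart-labelled array, -0.30 in D6_MEL and 2.43 in the array labelled Melan A. Over the other 9 arrays, with neither of the pair used, 154 of 15037 probes followed it at a Pearson correlation of 0.95 or more. Of these, 74 had 1 gene symbol and 80 had none or several, called unnamed here. Of the 154, 37 (24.0%) were at least 2-fold lower in the Heart-labelled array. Over all 15037 probes the count was 192 (1.28%), which includes these 37 and the Gdap1 probe. Gdap1 was itself among the genes with the lowest difference, and probes were chosen for following it. The higher share in the set is therefore a description and not a test. Those 37 had medians of -2.04 in the Heart-labelled array and -0.28 in D6_MEL, and of 3.08 in the array labelled Melan A, 1.49 in Kidney and 0.92 in Lung. Only 8 of the 37 carried 1 gene symbol. Among them were Fcgbp, a mucus protein, Prex2, Pip4p1, Ccnc, Stk11 and 1 of the 2 probes of the mitosis gene Cdca3. That Cdca3 probe differed by -1.24 while the other differed by -0.16. Among the 154 were 21 probes of 16 oxidative phosphorylation genes, ATP synthase subunits included, and these did not part the pair. Their differences ran from -0.38 to 0.45, with medians of -0.77 in the Heart-labelled array and -0.81 in D6_MEL. In the plot of these probes the 37 lie below the 2-fold line because that difference defines them. Since most of the 37 are unnamed here, what they share beyond the profile was not tested.

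**Figure D4:**
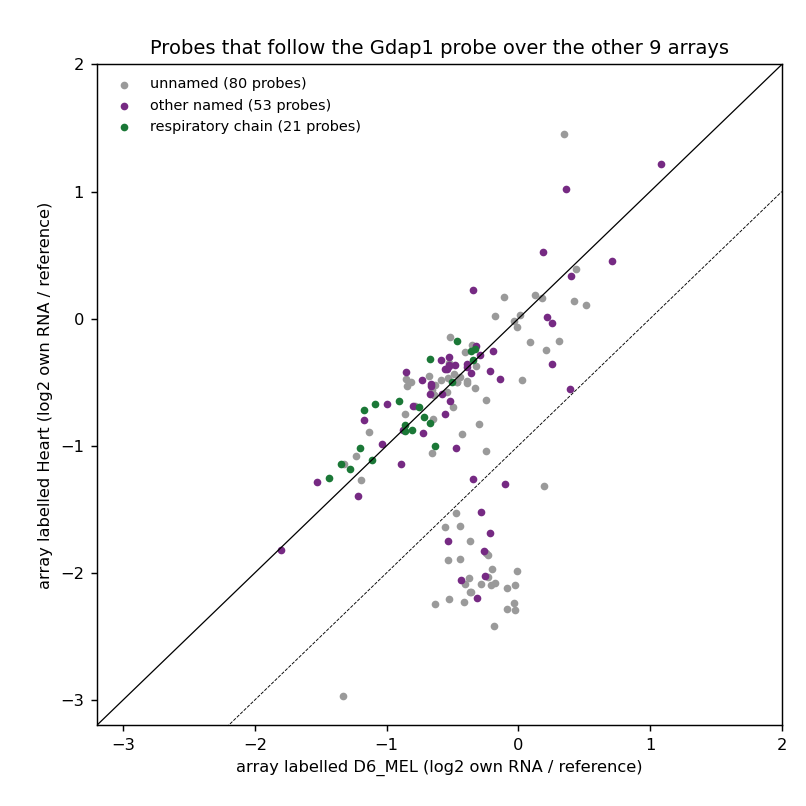
Each point is 1 of the 154 probes that follow the Gdap1 probe over the other 9 arrays, with its log2 ratio in D6_MEL on the x axis and in the Heart-labelled array on the y axis; the solid line marks equal values and the dashed line 2-fold lower in the Heart-labelled array. The 37 probes below the dashed line lie between -2.97 and -1.30 in the Heart-labelled array, with a median of -2.04. The 21 probes of oxidative phosphorylation genes, named respiratory chain in the legend and including ATP synthase, lie along the line of equal values.

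The 2 arrays shared values that no other array reached in 587 genes, the 4th highest count among the 55 pairs of arrays. Kidney with the array labelled Melan A had 886 such genes, and 3T3 with VA_475 had 555. Both were above each of the other 9 in 314 of 7013 genes (4.48%), by at least 2-fold in 13 (0.185%), and both were below in 273 (3.89%), by at least 2-fold in 3 (0.0428%). Without NRAS_MEL, the nearest other array, 32 genes were above by 2-fold and 5 below, and without VA_MEF 7 were below. AA792892 stood farthest apart, at 2.43 in the Heart-labelled array and 2.31 in D6_MEL, with the others no higher than 0.18. Acsl4, which activates arachidonic acid and has 2 probes, stood at 2.77 in the Heart-labelled array and 2.82 in D6_MEL, and no higher than 1.41 elsewhere. Azin1, which protects ornithine decarboxylase and so polyamine synthesis, had 3 probes and stood at 1.76 in the Heart-labelled array and 1.91 in D6_MEL. These genes were nearly level within the pair. Adam10, a membrane sheddase, stood at 1.36 in the Heart-labelled array and 1.96 in D6_MEL, and no other array was above -0.12. Vamp3, a vesicle fusion protein, stood at 1.83 in the Heart-labelled array and 2.50 in D6_MEL. Mcam, an adhesion protein known from melanoma, stood at 1.83 in the Heart-labelled array and 2.27 in D6_MEL, with the array labelled Melan A next at 0.55. All 3 were higher in D6_MEL than in the Heart-labelled array. Mest, an imprinted gene, stood at 0.92 in the Heart-labelled array and 1.79 in D6_MEL. NRAS_MEL was next at -0.26, while the median of the other 9 was -5.12. Nol4l, Gm16367, Gm4981 and Megf9 were the remaining genes among the 12 farthest above, beside Nid1.

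Below all others stood Myadm, a membrane protein of myeloid and other cells, at -5.00 in the Heart-labelled array and -4.53 in D6_MEL, with NRAS_MEL next at -2.89. Mpzl1, a cell surface glycoprotein, stood at -3.66 in the Heart-labelled array and -3.31 in D6_MEL. Slc29a1, a nucleoside transporter, stood at -3.22 in the Heart-labelled array and -2.89 in D6_MEL. NRAS_MEL was the next lowest for Myadm and Slc29a1, at -1.72 for the second. Gstm1, a glutathione transferase with 3 probes, stood at -2.06 in the Heart-labelled array and -2.0 in D6_MEL, and Gsto1, of another class of these enzymes, at -1.81 and -1.51. Eci1, of fatty acid oxidation in mitochondria, stood at -2.04 in the Heart-labelled array and -2.07 in D6_MEL. Egr1, an early response gene to growth signals, stood at -2.36 in the Heart-labelled array and -1.51 in D6_MEL, and elsewhere no lower than -1.0. Pkp4, Tanc1, Ptp4a3, Dhx57 and Tmem14c were the others among the 12 farthest below.

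**Figure D5:**
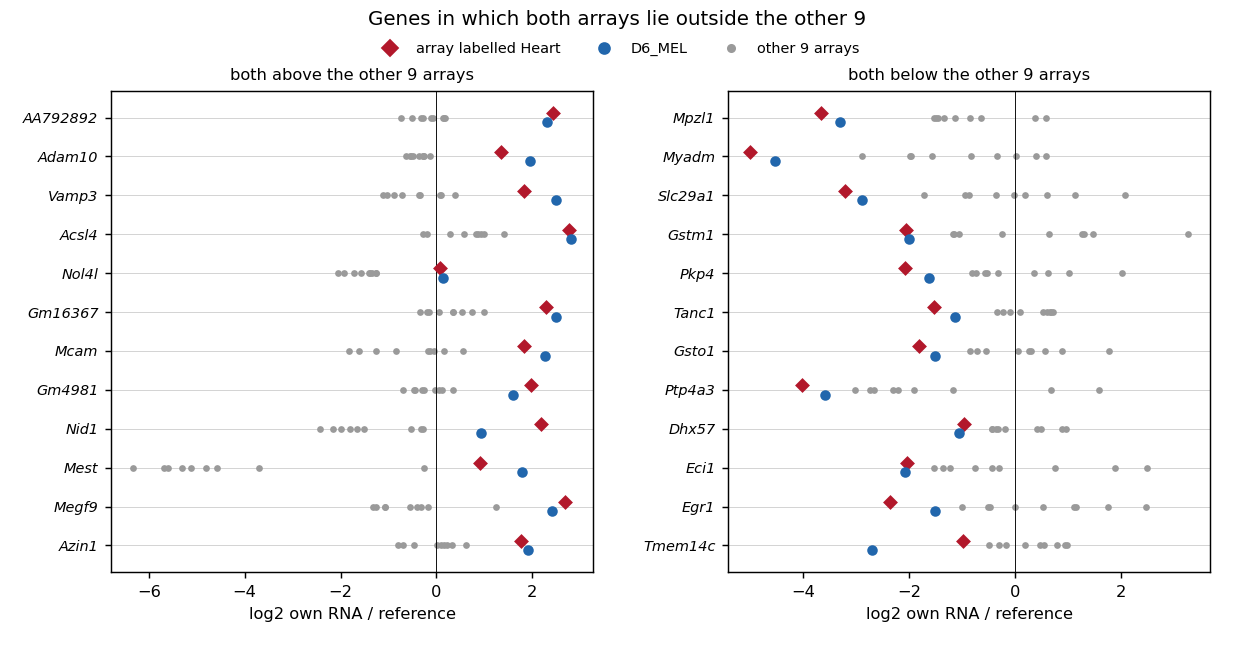
For the 12 genes in which the pair lies farthest above (left) and below (right) the nearest of the other 9 arrays, the log2 ratio of own RNA over reference is shown in the Heart-labelled array (diamonds), in D6_MEL (circles) and in the others (grey points). AA792892 and Acsl4 are nearly level within the pair, and Nid1 and Tmem14c are the genes in which the pair itself is 2-fold apart.

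Among genes of oxidative phosphorylation both arrays were below all others in 12 of 58, against 3.89% of all genes. Their margins were small. Ndufb10, of complex I, stood at -1.02 in the Heart-labelled array and -1.11 in D6_MEL, with the next array at -0.57. Cox4i1, of complex IV, stood at -0.65 and -1.02, with the next at -0.64. The median of the oxidative phosphorylation list was -0.60 in D6_MEL, the lowest of the 11 arrays, and -0.53 in the Heart-labelled array. In 3T3 and VA_MEF it was -0.54, in HRAS_MEL -0.48 and in VA_475 -0.42, so low levels were not particular to the pair. Of neural crest and glia genes 5 were measured, and 3 of them were high in both arrays. In 2 of the 5 both arrays were above all others, against 4.48% of all genes. The list had medians of 2.22 in the Heart-labelled array and 2.27 in D6_MEL, against -1.83 to 0.72 in the others. Gfra1, a receptor component for the growth factor GDNF, stood at 3.01 in the Heart-labelled array and 2.27 in D6_MEL. The array labelled Lung was close to D6_MEL for Gfra1, at 2.20. Erbb3, a neuregulin receptor, stood at 2.50 in the Heart-labelled array and 2.43 in D6_MEL. Nes, an intermediate filament of progenitor cells, stood at 2.22 in the Heart-labelled array and 2.76 in D6_MEL, with NRAS_MEL higher still at 2.89. Gap43, a protein of growing axons, was low in both, at -3.29 and -2.23, and Mbp, a myelin protein, stood at -0.30 in the Heart-labelled array and 0.31 in D6_MEL, within the range of the others.

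Marker lists of other cell types moved unevenly between the 2 arrays. Of the red cell genes, Hba-x, an embryonic alpha-like globin, stood at -1.46 in the Heart-labelled array and -3.16 in D6_MEL, while Hbb-b1, the adult beta globin, stood at -7.77 and -7.62. The reference is embryo RNA, so the level of each gene depends on that channel as well. Both arrays share this reference, so it enters both sides of their difference. Of the 8 macrophage genes, Laptm5 differed by 1.25 and Lyz2, lysozyme, by 1.0, whereas of the complement genes C1qc differed by 0.98 and C1qa by -0.54, and the list's median was -0.12, which crossed 0 under quantile normalization. Medians were -0.48 over 4 liver genes, -0.07 over 4 kidney genes, 0.60 over 3 lung epithelium genes, -0.08 over 4 endothelial genes and -0.05 over 18 fibroblast and matrix genes. Of the 12 epithelial genes, 8 were below 0 with a median of -0.39, all but 1 at negative levels in both arrays. Over all genes 50.1% were below 0. Krt8 stood at -4.78 in the Heart-labelled array and -3.86 in D6_MEL. Of its 3 probes, 1 differed by -2.24 and the others by -0.22 and -0.29. Median levels were -2.24 in the Heart-labelled array and -2.21 in D6_MEL for the epithelial list, and -6.01 and -5.31 for the liver list. Over all genes with a pair mean from -3 to -2 the median difference was -0.38, and under -3 it was -0.39. Whether cells of the listed types contributed RNA to either sample was not tested.

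Genes of signalling and stress lists differed one by one. Among 16 MAP kinase targets, 4 were above 0, against 49.9% of all genes, and the median was -0.25. Fos, an early response transcription factor, stood at 0.27 in the Heart-labelled array and -0.95 in D6_MEL, and Jun, its partner, at 1.61 and 0.74, whereas Egr1 ran the other way. Mmp9, a matrix protease, stood at -1.78 in the Heart-labelled array and -0.30 in D6_MEL. Ccnd1, which drives entry into the cell cycle, was nearly level, at 3.91 in the Heart-labelled array and 3.85 in D6_MEL. The early response genes thus gave no common direction. The metal-binding metallothioneins were both higher: Mt1 stood at -0.26 in the Heart-labelled array and -1.88 in D6_MEL, and Mt2 at -1.08 and -2.16. Of 9 interferon-induced genes, 7 were above 0, against 49.9% of all genes, with a median of 0.28. Ifitm3, a membrane protein that restricts viruses, led them, at -0.22 in the Heart-labelled array and -1.33 in D6_MEL. Among serum response targets, Myl9, a myosin light chain of contractile cells, stood at -3.50 in the Heart-labelled array and -2.30 in D6_MEL. The 14 amino acid stress genes had a median of -0.09, and Phgdh, the first enzyme of serine synthesis, stood at 0.93 in the Heart-labelled array and 1.86 in D6_MEL, opposite in direction to Atf3 of the same list. Among 17 imprinted and fetal genes 4 were above 0 and the median was -0.14, again crossing 0 under quantile normalization, with Plagl1, an imprinted zinc finger factor, at -4.46 in the Heart-labelled array and -3.55 in D6_MEL. Medians of the remaining lists were -0.11 over 15 chaperones of the endoplasmic reticulum, 0.16 over 17 oxidative stress genes, 0.13 over 7 genes of MHC class I presentation, 0.06 over 8 p53 targets and -0.26 over 14 serum response targets.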

How the data were processed

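RNA of 11 samples was measured on 2-colour cDNA arrays, 1 array per label. The authors deposited a log ratio for each of 15247 probes, read here as log2; neither the base nor the background correction nor the normalization is given in the sources used here, and natural logarithms are not excluded. Deposited medians lay between -0.03 and 0.03. Each array held 15170 to 15210 values; intensities were not analysed here, so signal over background is unknown, and precision is limited by having 1 array a label. The sign was turned throughout, because organ marker genes are then high in 1 array and low elsewhere.

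The platform annotation gave 9600 probes 1 symbol, 214 several and 5433 none. Of the probes with 1 symbol, 9492 had their gene in RefSeq GRCm38.p6, and 0 symbols changed. With Python 3.11.15, NumPy 2.4.6 and pandas 2.3.3, arrays were centred on their medians and a gene's probes were averaged where both arrays had a value, a choice made after a probe missing on 1 array was seen to bias some averages. No test was run. Calls are log2 differences of 1 (2-fold) or 0.58 (1.5-fold). The calculation was tested on simulated data.

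The pair, the gene lists and the rule for named genes were chosen with earlier results of these data known. The rule took the 15 highest and 15 lowest genes, genes with every probe 2-fold apart, at most 4 genes of each of 31 lists, the 12 genes a direction farthest outside the other arrays, and genes beside the threshold. Genes named beyond it, as further list members or in the set around Gdap1, were chosen after their values were seen. Alternatives were the probe summary, the centring, the scale, the genes and the arrays used. Each deposited column was used.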

Additional observations from a re-analysis of the deposited data

How the results depend on the processing

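No paired analysis was possible because each label has 1 array and the labels give no replicate numbers. No named gene at least 2-fold apart changed sign under quantile normalization. Taking 1 probe per gene, the other alternative run for single genes, could not turn a sign among them. Each of those genes had 1 probe or had all its probes on the same side of 0. The medians of the heart muscle, kidney, fibroblast, macrophage, endothelial, fatty acid, imprinted and ribosomal protein lists crossed 0 under at least 1 alternative. The 61 higher and 86 lower genes became 105 and 146 with arrays scaled to an equal median absolute deviation, 191 and 260 if the logarithms are natural, and 139 and 212 over all probes, named or not. Among genes whose mean over the other 9 arrays was -1 or more, an alternative chosen after seeing the data, 49 were higher and 56 lower. Quantile normalization gave 75 and 82, which moved the higher share from 41.5% to 47.8%, and it moved the count of lower genes with the Heart-labelled array alone outside to 11. Lysosomal genes had medians of 0.47 to 0.73 under every setting.

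Genes with both arrays outside depended on the arrays they were set against. Against the 6 other arrays grouped by label as cultured lines, 490 lay above and 424 below. Those 6 include the array labelled Melan A, which had the highest heart muscle median, at 3.13. Against the 3 other organ labels, 1560 lay above (205 by 2-fold) and 1633 below (192 by 2-fold). Leaving out 1 of the other 9 in turn gave 335 to 425 above and 294 to 409 below, and by 2-fold 13 to 32 above, the highest without NRAS_MEL, and 3 to 7 below, with 7 without VA_MEF and 5 without NRAS_MEL.

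Quantile normalization gave -0.15 for liver, 0.061 for fibroblast and matrix, 0.0070 for macrophage, -0.16 for epithelial, -0.19 for amino acid stress, 0.0046 for imprinted and 0.22 for oxidative phosphorylation genes. Taking 1 probe per gene gave -0.24 for heart muscle, -0.015 for chaperones of the endoplasmic reticulum, -0.067 for heat shock, -0.27 for DNA replication, -0.30 for mitosis, -0.37 for TGF-beta and serum response and -0.041 for ribosomal protein genes. With genes of -1 or more, medians were 0.13 for fibroblast, -0.23 for neural crest, 0.41 for interferon-induced and 0.072 for oxidative stress genes. The cause of these shifts was not tested. Without intensities, it cannot be said which ratios rest on dim spots.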

Other observations

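Some families were gathered after their values were seen, and are given as values. Over all genes 49.9% were above 0 and 50.1% below. The 13 subunits of the vacuolar ATPase, the pump that acidifies lysosomes, had a median difference of 0.34, Heart-labelled array minus D6_MEL, with 12 above 0, the highest being Atp6v0b at 0.92. The 7 cathepsins had a median of 0.45, with 6 above 0 and Ctsc at -0.53. The 4 genes of insulin-like growth factor binding proteins were all below 0, with a median of -0.79 and Igfbp3 lowest at -1.49. Of 8 tropomyosin and myosin light chain genes, 6 were below 0, with a median of -0.17. Of the 5397 probes with no gene in the annotation and a value on both arrays, 47 (0.871%) were at least 2-fold higher in the Heart-labelled array and 78 (1.45%) lower.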
